A study of Mus musculus with 12 samples.

Results

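Genes of the unfolded protein response and of protein folding in the endoplasmic reticulum (ER) were followed in hematopoietic stem cells (HSCs), the cells from which all blood lineages derive. The set holds 32 genes, taken by gene symbol out of the 46986 features of the deposited expression table. The rule used no expression value, but the genes were listed with earlier results of these data known. All 32 were found, 31 under their present symbol and Selenos under its older symbol Vimp. A gene counted as measured when it reached 1 RPKM (reads scaled to transcript length and to library depth) in at least 3 of the 12 libraries. By that rule 30 genes were tested, and Atf6 and Eif2ak3 stayed under 1 RPKM in every library and are stated as not measured.

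Each library came from 2000 HSCs sorted out of marrow from C57BL/6 mice aged 12 weeks. The 12 libraries formed 4 groups of 3. The ABX 5-FU mice had ampicillin, neomycin, metronidazole and vancomycin in the drinking water for 4 to 6 weeks and then 1 intravenous dose of 200 mg/kg 5-fluorouracil (5-FU), a drug that kills dividing cells, and were examined on day 12 after it. The Ctrl 5-FU mice had the same 5-FU dose and day without antibiotics, the ABX mice had antibiotics alone at steady state, and the Ctrl mice had neither. The labels name no engineered allele in any group. The study asked how removal of gut bacteria bears on HSC expression at steady state and during recovery from 5-FU. The labels name no sort gates and do not say whether libraries came from separate mice or from pools, so the p-values measure the spread between these libraries, which may be technical. In such bulk samples fewer cells of a type and less RNA per cell cannot be told apart.

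The ER folds and glycosylates proteins bound for membranes and secretion, and the unfolded protein response adjusts that capacity to the load. The membrane sensors IRE1 (Ern1), PERK (Eif2ak3) and ATF6 are held inactive by the chaperone BiP (Hspa5) until unfolded proteins draw it away. IRE1 splices Xbp1 mRNA into the form that encodes an active transcription factor, ATF6 is cut to release its own factor, and PERK slows general translation while favouring translation of Atf4, which in turn raises Ddit3, Trib3 and Ppp1r15a. The targets of these arms include chaperones, disulfide isomerases, components of the protein entry channel and the machinery that returns misfolded proteins to the cytosol for degradation. HSCs make protein at a low rate and are known to be sensitive to misfolded protein. Much of this response is set by splicing, cleavage and translation, which gene-level RPKM values do not record.

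Many targets of ATF6 and XBP1 carry an ER stress response element (ERSE) in the promoter, and the sites that occur in these genes are shown because they mark which members share it. RefSeq promoter windows (GRCm38.p6, 250 bases before to 50 after the start) were found for 28 of the 32 genes, and none was found for Manf, Hyou1, Atf6 and Derl1. Both strands were searched for ERSE, written as CCAAT, 9 bases of any kind, then CCACG. A match stood in the windows of 8 genes, Hspa5, Hsp90b1, Pdia6, Calr, Canx, Dnajc3, Creld2 and Syvn1, against 0.137% of the 27025 genes with a window. Of the 13 chaperones, lectins and isomerases with a window, 7 held one. The sites are printed on the strand of the gene with both fixed parts in capitals, so that a site on the other strand reads CGTGG, 9 bases, ATTGG.
Hspa5 chr2:34772025-34772043 (+): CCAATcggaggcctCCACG
Hsp90b1 chr10:86705638-86705656 (-): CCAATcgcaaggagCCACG
Hsp90b1 chr10:86705533-86705551 (-): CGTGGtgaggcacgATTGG
Pdia6 chr12:17266491-17266509 (+): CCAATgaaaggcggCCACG
Calr chr8:84847075-84847093 (-): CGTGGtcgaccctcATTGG
Canx chr11:50325800-50325818 (-): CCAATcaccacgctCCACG
Dnajc3 chr14:118937827-118937845 (+): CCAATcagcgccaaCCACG
Creld2 chr15:88819520-88819538 (+): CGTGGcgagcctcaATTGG
Syvn1 chr19:6046532-6046550 (+): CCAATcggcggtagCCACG
The variant ERSE-II (ATTGG, 1 base, CCACG) stood in 2 further members, Dnajb11 and Herpud1, against 0.044% of all genes with a window.
Dnajb11 chr16:22857852-22857862 (+): ATTGGcCCACG
Herpud1 chr8:94386377-94386387 (+): ATTGGgCCACG
The C/EBP-ATF element (TGATG, 1 base of any kind, then AA), bound by ATF4 and CHOP, matched in Herpud1 and Trib3, against 4.511% of genes. The UPRE core TGACGTGG, a target of XBP1, matched in 0 of the 28, against 0.714% of genes. These are matches of letters within the windows and say nothing of factor binding.

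The window of Hspa5 is printed whole, as the gene of BiP is the usual readout of the response, with its exact ERSE match in capitals. It lies on the plus strand of GRCm38.p6 at chr2:34771840-34772139, and the match begins 65 bases before the RefSeq start that places the window. The deposited values give the gene an earlier start, 34771970, which lies before the match.
Hspa5 promoter: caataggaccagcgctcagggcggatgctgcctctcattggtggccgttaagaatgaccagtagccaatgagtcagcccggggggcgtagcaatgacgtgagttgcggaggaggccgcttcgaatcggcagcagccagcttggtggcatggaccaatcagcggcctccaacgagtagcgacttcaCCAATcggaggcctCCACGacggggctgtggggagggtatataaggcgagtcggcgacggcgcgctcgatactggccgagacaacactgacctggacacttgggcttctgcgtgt

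The libraries were checked before the comparisons. Reads per library, as judged by the spacing of low RPKM values, came to 27.4 M to 54.0 M. They came to 28.8 M to 37.3 M in ABX libraries against 43.9 M to 54.0 M in Ctrl libraries, ranges that did not overlap. HSC markers summed to 278 to 303 RPKM in ABX 5-FU libraries, 295 to 315 RPKM in Ctrl 5-FU libraries, 202 to 245 RPKM in ABX libraries and 230.0 to 248 RPKM in Ctrl libraries, and 12 of the 14 reached 1 RPKM in at least 3 libraries (Mecom and Fgd5 did not). Lineage markers were present at levels that differed between libraries. The 10 megakaryocyte and platelet markers summed to 132 to 151 RPKM in ABX 5-FU libraries, 125 to 433 RPKM in Ctrl 5-FU libraries, 90.1 to 93.9 RPKM in ABX libraries and 65.9 to 155 RPKM in Ctrl libraries. The 10 erythroid markers summed to 167 to 511 RPKM in ABX 5-FU libraries, 144 to 229.7 RPKM in Ctrl 5-FU libraries, 40.1 to 58.3 RPKM in ABX libraries and 29.1 to 305 RPKM in Ctrl libraries. The 14 neutrophil and monocyte markers summed to 139 to 166 RPKM in ABX 5-FU libraries, 152 to 448 RPKM in Ctrl 5-FU libraries, 112 to 143 RPKM in ABX libraries and 138 to 154 RPKM in Ctrl libraries, with 2 of them under 1 RPKM everywhere. The 14 handling and immediate early genes summed to 430.0 to 470.3 RPKM in ABX 5-FU libraries, 353 to 481 RPKM in Ctrl 5-FU libraries, 231 to 330.0 RPKM in ABX libraries and 266 to 297 RPKM in Ctrl libraries, higher in every 5-FU library than in any library without 5-FU, with 4 of them under 1 RPKM everywhere. The 8 stromal and endothelial markers summed to 2.09 to 30.0 RPKM in ABX 5-FU libraries, 2.04 to 16.5 RPKM in Ctrl 5-FU libraries, 1.33 to 1.94 RPKM in ABX libraries and 1.30 to 6.29 RPKM in Ctrl libraries, with 3 of them (Emcn, Lepr and Col3a1) under 1 RPKM everywhere. Of the 11 B and plasma cell markers, the plasma cell genes Jchain, Mzb1, Prdm1 and Tnfrsf17 were among 9 under 1 RPKM everywhere, Ms4a1 and Pax5 were at 0, and the list summed to 10.6 to 15.5 RPKM. Of the 9 T and NK cell markers 7 were under 1 RPKM everywhere, with Cd3e, Cd3g, Cd8a and Ncr1 at 0, and the list summed to 24.2 to 55.1 RPKM. Of the 8 dendritic and macrophage markers 4 were under 1 RPKM everywhere, and the list summed to 2.42 to 24.6 RPKM. The part of these lists in the results below was not tested. A value given without a library does not test it either, since all properties of that library are left out together. Libraries with and without 5-FU carry different i7 indexes (the barcode in the titles), so the index and 5-FU cannot be told apart.

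On the RPKM scale, which divides by transcript length, the lectin chaperone Calr and the chaperone Hspa5 were the most abundant members. Calr averaged 120.2 ± 2.64 RPKM in ABX 5-FU libraries, 109 ± 8.85 RPKM in Ctrl 5-FU libraries, 111 ± 6.87 RPKM in ABX libraries and 134 ± 2.61 RPKM in Ctrl libraries (SD, n = 3 each). Hspa5 averaged 68.7 ± 0.940 RPKM in ABX 5-FU libraries, 84.7 ± 29.1 RPKM in Ctrl 5-FU libraries, 92.1 ± 3.86 RPKM in ABX libraries and 98.1 ± 10.6 RPKM in Ctrl libraries (SD, n = 3 each). Calr was above Hspa5 in every library, and the 2 stood closest in Ctrl 5-FU replicate 1. The disulfide isomerase P4hb and the stress genes Xbp1, Atf4 and Ppp1r15a were among the next most abundant. At the other end Atf6 lay between 0.224 and 0.447 RPKM and Eif2ak3, the gene of PERK, between 0.0661 and 0.181 RPKM. Ern1, Edem1 and Manf lay around 1 RPKM. The genes of all 3 membrane sensors were thus among the lowest of the set.

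To see what 5-FU changed, the 6 libraries with 5-FU were compared with the 6 without, averaged over both antibiotic states, in 1 limma fit of log2(RPKM + 1) over 8553 genes with p-values adjusted over all of them and a threshold of 0.05. Changes are differences on that log2 scale, which understates the change of low genes. Of the 30 members 9 fell and 3 rose, against 3 lower and 8 higher when every library was rescaled to the same total. Shares of all genes called under that rescaling are not given here, so its counts are not read as a result about the members. As deposited, 23.4% of all genes tested fell and 20.2% rose, so the members' shares of 30% lower and 10% higher lay near and below the background. Their median change was -0.13 against -0.005 for all genes, and 0.03 against 0.15 when libraries were rescaled to the same total. Ern1 and Manf, among those that fell, met the rule of 1 RPKM in 3 libraries only through libraries without 5-FU, so the filter itself favoured a lower value with 5-FU. Of the 27 members that met it in both 5-FU states, 7 fell and 3 rose. With no filter on low values only Sdf2l1, Manf, Sec61b, Ssr1 and Sel1l passed. The calls were spread unevenly over the roles. Among those that fell were 3 of 9 ER chaperones and co-chaperones (Sdf2l1, Manf and Creld2), 3 of 4 disulfide isomerases (P4hb, Pdia3 and Pdia6), both translocation genes (Sec61b and Ssr1) and the sensor gene Ern1. The 3 that rose, Sel1l, Syvn1 and Derl1, all belong to the 7 genes of ER-associated degradation. The 2 lectin chaperones and the 3 outputs of the PERK branch held no call. The difference between the roles was not tested.

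**Figure D1:**
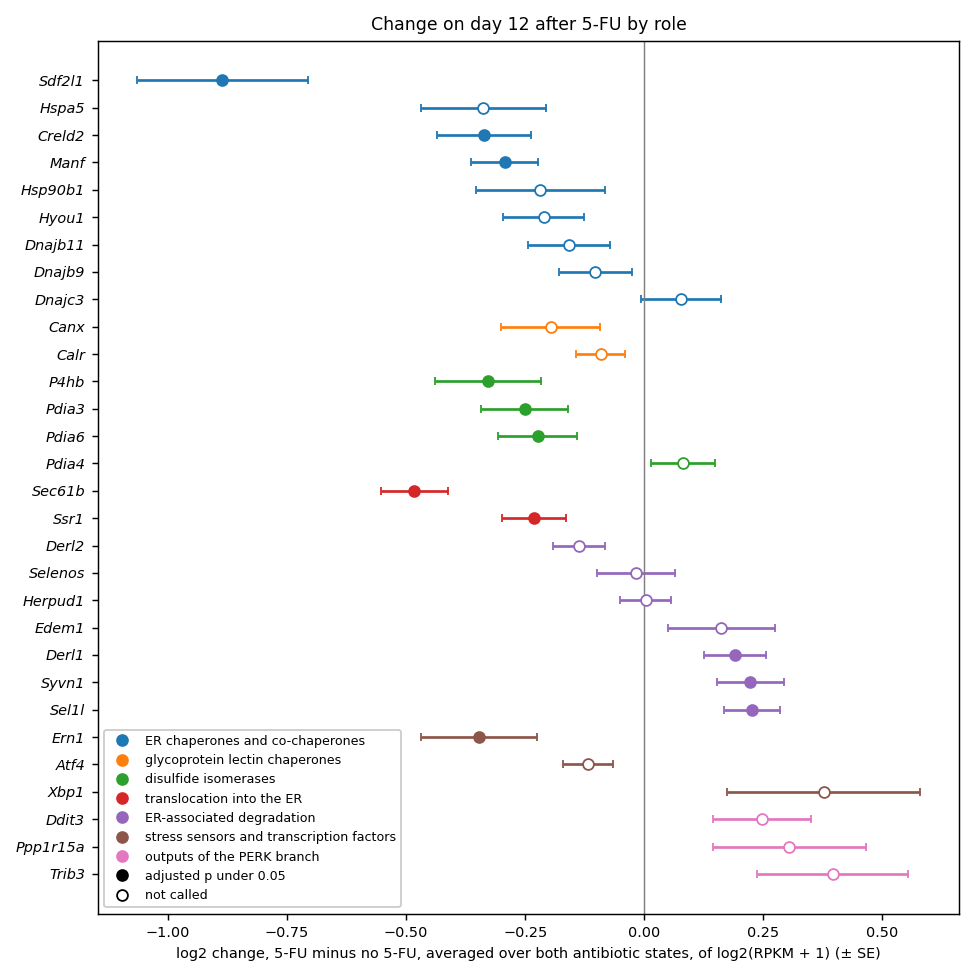
Change of each of the 30 tested genes with 5-FU (6 libraries) against without 5-FU (6 libraries), averaged over both antibiotic states, as a difference of log2(RPKM + 1) on the horizontal axis with its standard error, grouped by role from top to bottom. Filled points passed an adjusted p of 0.05 in limma, 9 to the left of 0 (Ern1 and Manf among them, which entered the test only through libraries without 5-FU) and 3 to the right. With every library rescaled to the same total, 3 were lower and 8 higher. The shares of all genes under that rescaling are not given here.

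These counts depend on how libraries are scaled. RPKM over all features summed to 142127 to 157119 in libraries with 5-FU and to 165097 to 176924 in libraries without it. With every library rescaled to the same total, the median gene moved to 0.15 in this comparison, and the 3 members that were lower were Sdf2l1, Sec61b and Manf, with no call for Creld2, P4hb, Pdia3, Pdia6, Ssr1 and Ern1. The 8 that were higher were Sel1l, Syvn1, Derl1, Herpud1, Pdia4, Ddit3, Trib3 and Ppp1r15a. Role medians are given relative to the median gene. The median of the chaperones lay 0.24 below it (0.21 below as deposited), that of the isomerases 0.22 below (0.23 below as deposited) and that of the degradation genes 0.24 above (0.17 above as deposited). That of the translocation genes lay at -0.37 relative to it (-0.35 as deposited) and that of the PERK outputs at 0.34 (0.31 as deposited). For the lectins it was -0.12 (-0.14 as deposited) and for the sensors and factors -0.09 (-0.11 as deposited). Not taken relative to the median gene, the medians of these last 2 roles were below 0 as deposited and above 0 under the rescaling. Their direction thus depends on the reference, and none is given for these 2 roles.

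Sdf2l1 (chr16:17130138-17132383, minus strand of mm10), which encodes a partner of the co-chaperone ERdj3, showed the largest averaged change of the 30. It had 6.56, 6.24 and 8.06 RPKM in ABX 5-FU libraries, 20.1, 8.96 and 8.93 RPKM in Ctrl 5-FU libraries, 14.6, 17.9 and 13.0 RPKM in ABX libraries and 23.5, 16.9 and 21.8 RPKM in Ctrl libraries. All 3 ABX 5-FU libraries and 2 of the 3 Ctrl 5-FU libraries were below every library without 5-FU, and Ctrl 5-FU replicate 1 lay inside the range of the Ctrl libraries. Full separation of ABX 5-FU from ABX libraries held for 49.9% of all genes, and among the members for 5 higher and 10 lower. That of Ctrl 5-FU from Ctrl libraries held for 37.0% of all genes, and among the members for 2 higher and 5 lower. Such separations, here and below, are thus not particular to these genes. The averaged 5-FU change was -0.89 ± 0.18 (SE, adjusted p = 0.00244) and kept its call under every alternative run. With antibiotics the change was -1.02 ± 0.25 (SE, adjusted p = 0.0119), and it missed the threshold without ABX replicate 2 at -0.90 (adjusted p = 0.0518) and with no filter at -1.02 (adjusted p = 0.0560). Without antibiotics it was -0.75 ± 0.25 (SE, adjusted p = 0.0550) with all libraries and -1.11 (adjusted p = 0.00141) without Ctrl 5-FU replicate 1.

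Creld2 (chr15:88819646-88826681, plus strand), which encodes an ER protein induced by ER stress, and whose ERSE is printed above, had 3.65, 3.41 and 3.53 RPKM in ABX 5-FU libraries, 7.01, 3.93 and 5.10 RPKM in Ctrl 5-FU libraries, 5.41, 5.75 and 5.14 RPKM in ABX libraries and 6.54, 5.48 and 5.97 RPKM in Ctrl libraries. The ABX 5-FU libraries were the 3 lowest of the 12, below all Ctrl 5-FU and all ABX libraries, whereas the Ctrl 5-FU libraries spread over and beyond the range of the Ctrl libraries. Its averaged change was -0.34 ± 0.10 (SE, adjusted p = 0.0172). With antibiotics the 5-FU change was -0.51 ± 0.14 (SE, adjusted p = 0.0189), a call lost without ABX 5-FU replicate 2, ABX 5-FU replicate 3 or ABX replicate 2 at adjusted p between 0.0505 and 0.0677, with no filter at -0.51 (adjusted p = 0.0673) and with libraries rescaled to the same total at -0.43 (adjusted p = 0.0819).

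Manf (chr9:106838312-106891979, minus strand) encodes a secreted factor that binds BiP. It had 0.966, 0.749 and 0.840 RPKM in ABX 5-FU libraries, 1.27, 0.773 and 0.796 RPKM in Ctrl 5-FU libraries, 1.14, 1.31 and 1.30 RPKM in ABX libraries and 1.5, 1.41 and 1.26 RPKM in Ctrl libraries. All of these levels are near 1 RPKM. Both Ctrl 5-FU replicates 2 and 3 and all ABX 5-FU libraries were below every library without 5-FU, and Ctrl 5-FU replicate 1 was not. The averaged change was -0.29 ± 0.07 (SE, adjusted p = 0.00614) and kept its call under every alternative in which the gene was tested, -0.29 (adjusted p = 0.0185) with no filter among them. It reached 1 RPKM in all 6 libraries without 5-FU and in 1 with it. Without antibiotics it was -0.30 ± 0.10 (SE, adjusted p = 0.0491), a call that was lost when any 1 library but Ctrl 5-FU replicate 1 was left out (adjusted p between 0.0568 and 0.164), and also with a pseudocount of 0.1 or 0.5, no filter, rescaled libraries or only the groups compared (adjusted p between 0.0504 and 0.136). The exons of Manf share 4.1% and 4.7% of their bases with the genes Dcaf1 and 4930524O07Rik on the other strand, and the kit does not keep strand.

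Hspa5, the gene of BiP (chr2:34771970-34777547, plus strand), had 67.6, 69.1 and 69.4 RPKM in ABX 5-FU libraries, 116, 58.4 and 79.7 RPKM in Ctrl 5-FU libraries, 90.8, 89.1 and 96.5 RPKM in ABX libraries and 100.4, 107 and 86.5 RPKM in Ctrl libraries. The ABX 5-FU libraries agreed within 2 RPKM and were below every library without 5-FU. Ctrl 5-FU replicate 1 was the highest and Ctrl 5-FU replicate 2 the lowest of all 12 libraries. Hspa5 did not pass the test in any comparison, with an averaged change of -0.34 ± 0.13 (SE, adjusted p = 0.0555). Without Ctrl 5-FU replicate 1 the averaged change was -0.46 (adjusted p = 0.00144), that with antibiotics -0.42 (adjusted p = 0.0165) and that without antibiotics -0.51 (adjusted p = 0.0164). The change with antibiotics also passed without Ctrl 5-FU replicate 2, at -0.42 (adjusted p = 0.0316). Neither library enters that change, which was also -0.42 with all libraries (adjusted p = 0.108). Only the shared estimate of spread and the adjustment differed.

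Hsp90b1, which encodes the ER chaperone GRP94 (chr10:86690209-86705509, minus strand), had 19, 17.7 and 16.3 RPKM in ABX 5-FU libraries, 24.9, 13.1 and 18.3 RPKM in Ctrl 5-FU libraries, 18.4, 15.5 and 22.1 RPKM in ABX libraries and 21.1, 26.3 and 24.4 RPKM in Ctrl libraries. The groups overlapped, and again the highest and the lowest value of the 5-FU libraries were Ctrl 5-FU replicates 1 and 2. The averaged change was -0.22 ± 0.14 (SE, adjusted p = 0.212) with all libraries and -0.33 (adjusted p = 0.0309) without Ctrl 5-FU replicate 1. A transcript on the other strand, 1810014B01Rik, shares 10.3% of its exon bases.

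The other 4 co-chaperones and helpers gave no call. Hyou1, a nucleotide exchange factor of BiP, had an averaged difference of -0.21 (adjusted p = 0.0624), and passed without ABX 5-FU replicate 1 or without Ctrl replicate 1 (adjusted p = 0.0258 and 0.0109). Dnajb11 (ERdj3) had an averaged difference of -0.16 (adjusted p = 0.159), and passed without Ctrl 5-FU replicate 1 (adjusted p = 0.00726). Dnajb9 (ERdj4) had one of -0.10 (adjusted p = 0.297) and Dnajc3, a co-chaperone of BiP, had one of 0.08 (adjusted p = 0.483). Summed over the 9 chaperones and co-chaperones, the level was 117, 115 and 116 RPKM in ABX 5-FU libraries, 188, 101 and 131 RPKM in Ctrl 5-FU libraries, 149.7, 149.8 and 159 RPKM in ABX libraries and 171, 179 and 158 RPKM in Ctrl libraries. Every ABX 5-FU library was below every ABX library, and Ctrl 5-FU replicate 1 was the highest of the 12.

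**Figure D2:**
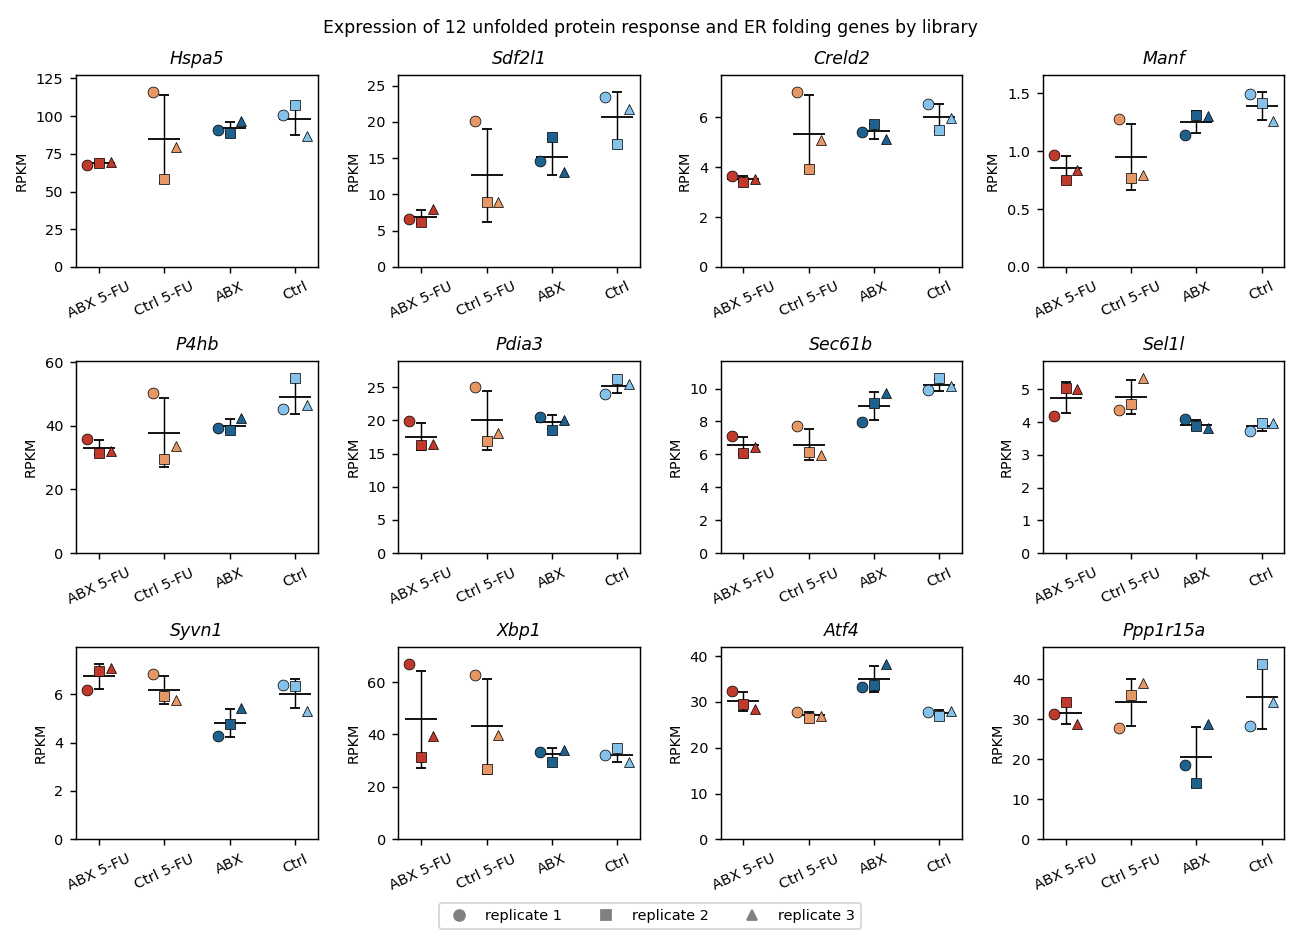
RPKM of 12 of the genes in each of the 12 libraries, on linear axes from 0, with ABX 5-FU, Ctrl 5-FU, ABX and Ctrl from left to right; symbols are replicates, the bar is the mean and the whisker the SD (n = 3). Ctrl 5-FU replicate 1 (circle) is above the other 2 of its group for Hspa5, Sdf2l1, Creld2, Manf, P4hb, Pdia3, Sec61b, Syvn1, Xbp1 and Atf4, and Xbp1 is at 66.8 and 62.6 RPKM in replicate 1 of the ABX 5-FU and Ctrl 5-FU groups.

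The disulfide isomerases form and reshuffle disulfide bonds. P4hb (chr11:120560298-120573253, minus strand), the founding member, had 35.7, 31.6 and 32.2 RPKM in ABX 5-FU libraries, 50.2, 29.6 and 33.7 RPKM in Ctrl 5-FU libraries, 39.2, 38.7 and 42.3 RPKM in ABX libraries and 45.2, 54.9 and 46.6 RPKM in Ctrl libraries. The ABX 5-FU libraries were below every ABX and Ctrl library, and Ctrl 5-FU replicate 1 lay among the Ctrl libraries. Its averaged change was -0.33 ± 0.11 (SE, adjusted p = 0.0324), a call lost when any of 7 libraries was left out, namely ABX 5-FU replicates 2 and 3, Ctrl 5-FU replicates 2 and 3, ABX replicates 2 and 3 and Ctrl replicate 2 (adjusted p between 0.0520 and 0.0732).

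Pdia3 (chr2:121413775-121438687, plus strand), the isomerase that works with the lectin chaperones, had 20.0, 16.3 and 16.5 RPKM in ABX 5-FU libraries, 25.1, 16.8 and 18.1 RPKM in Ctrl 5-FU libraries, 20.5, 18.6 and 20.1 RPKM in ABX libraries and 24.0, 26.2 and 25.5 RPKM in Ctrl libraries. Apart from Ctrl 5-FU replicate 1, the Ctrl libraries were the 3 highest. Its averaged change was -0.25 ± 0.09 (SE, adjusted p = 0.0451), a call lost when any 1 library other than ABX 5-FU replicate 1 or Ctrl 5-FU replicate 1 was left out (adjusted p between 0.0563 and 0.1004).

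Pdia6 (chr12:17266545-17284770, plus strand), an isomerase that also limits IRE1 signalling, had 14.1, 12.2 and 11.7 RPKM in ABX 5-FU libraries, 18.2, 12.8 and 13.5 RPKM in Ctrl 5-FU libraries, 14.2, 12.7 and 14.4 RPKM in ABX libraries and 18.3, 18.9 and 18.8 RPKM in Ctrl libraries. Every Ctrl library was above every library of the other 3 groups, while ABX 5-FU, Ctrl 5-FU and ABX libraries overlapped. Its averaged change was -0.22 ± 0.08 (SE, adjusted p = 0.0469), lost when any of 9 libraries was left out, all but ABX 5-FU replicate 1, Ctrl 5-FU replicate 1 and ABX replicate 2 (adjusted p between 0.0676 and 0.105). Pdia4, the fourth isomerase, lay between 6.63 and 9.70 RPKM and had an averaged difference of 0.08 (adjusted p = 0.355).

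The lectins Calr and Canx hold newly made glycoproteins. Calr (chr8:84841850-84846934, minus strand) had 119, 123 and 118 RPKM in ABX 5-FU libraries, 119, 103 and 105 RPKM in Ctrl 5-FU libraries, 107, 107 and 119 RPKM in ABX libraries and 137, 133 and 132 RPKM in Ctrl libraries. The Ctrl libraries were the 3 highest, and the other 3 groups overlapped. Without antibiotics the 5-FU change was -0.30 ± 0.07 (SE, adjusted p = 0.0153), lost without Ctrl 5-FU replicate 2 or 3 (adjusted p = 0.05003 and 0.0532), with only the groups compared at -0.30 (adjusted p = 0.0758) and with libraries rescaled to the same total at -0.12 (adjusted p = 0.237). With antibiotics it was 0.11 ± 0.07 (SE, adjusted p = 0.249), and 0.29 (adjusted p = 0.0115) with libraries rescaled to the same total. Canx lay between 15.2 and 28.1 RPKM and its averaged change was -0.20 (adjusted p = 0.146).

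Translocation into the ER held the change with the smallest p of the set. Sec61b (chr4:47474658-47483242, plus strand) encodes the beta subunit of the Sec61 entry channel. It had 7.11, 6.08 and 6.47 RPKM in ABX 5-FU libraries, 7.70, 6.13 and 5.95 RPKM in Ctrl 5-FU libraries, 8.0, 9.13 and 9.71 RPKM in ABX libraries and 9.88, 10.6 and 10.2 RPKM in Ctrl libraries. Every library with 5-FU was below every library without it, in both antibiotic states. Such a separation, higher or lower, held for 17.9% of all genes, and among the members for 1 higher and 1 lower. Averaged over both states the Sec61b change was -0.48 ± 0.07 (SE, adjusted p = 0.000344), and it kept its call under every alternative run. The change was -0.57 ± 0.10 (SE, adjusted p = 0.00353) without antibiotics, called under every alternative run. With antibiotics it was -0.39 ± 0.10 (SE, adjusted p = 0.0125), lost without ABX 5-FU replicate 2 at -0.35 (adjusted p = 0.0536) and with libraries rescaled to the same total at -0.27 (adjusted p = 0.0694). These values are uncertain as to their source, since Gm10320 is 98.312% identical over 474 nt and reads can fall to either. Gm10320 had 3.59, 2.90 and 2.80 RPKM in ABX 5-FU libraries, 4.44, 2.95 and 2.95 RPKM in Ctrl 5-FU libraries, 4.59, 5.08 and 4.45 RPKM in ABX libraries and 4.63, 5.41 and 5.51 RPKM in Ctrl libraries. In the sum of both genes every library with 5-FU was again below every library without it, with 8.90 to 12.1 RPKM against 12.6 to 16.0 RPKM.

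Ssr1 (chr13:37971401-37994190, minus strand), a subunit of the translocon-associated complex, had 10.51, 10.8 and 10.6 RPKM in ABX 5-FU libraries, 12.4, 9.63 and 10.7 RPKM in Ctrl 5-FU libraries, 11.8, 12.1 and 12.7 RPKM in ABX libraries and 12.8, 15.2 and 12.5 RPKM in Ctrl libraries. Apart from Ctrl 5-FU replicate 1, all libraries with 5-FU were below all libraries without it. On average Ssr1 changed by -0.23 ± 0.07 (SE, adjusted p = 0.0158), and of the alternatives only the rescaling to 1 total took the call away, at -0.07 (adjusted p = 0.487).

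Of the 7 degradation genes 3 rose. Sel1l (chr12:91806043-91849157, minus strand), the scaffold of the main ubiquitin ligase complex of the ER, had 4.19, 5.05 and 5.00 RPKM in ABX 5-FU libraries, 4.37, 4.56 and 5.34 RPKM in Ctrl 5-FU libraries, 4.08, 3.87 and 3.82 RPKM in ABX libraries and 3.72, 3.96 and 3.99 RPKM in Ctrl libraries. Every library with 5-FU was above every library without it. On average Sel1l changed by 0.23 ± 0.06 (SE, adjusted p = 0.00926), called under every alternative in which the gene was tested.

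Syvn1 (chr19:6046576-6053712, plus strand), which encodes the ubiquitin ligase HRD1 of the same complex, had 6.16, 6.95 and 7.08 RPKM in ABX 5-FU libraries, 6.84, 5.93 and 5.76 RPKM in Ctrl 5-FU libraries, 4.28, 4.75 and 5.44 RPKM in ABX libraries and 6.38, 6.33 and 5.32 RPKM in Ctrl libraries. Every ABX 5-FU library was above every ABX library, a separation that held, higher or lower, for 49.9% of all genes. The Ctrl 5-FU and Ctrl libraries overlapped. With antibiotics the 5-FU change was 0.41 ± 0.10 (SE, adjusted p = 0.00989), called under every alternative run, and without antibiotics it was 0.03 ± 0.10 (SE, adjusted p = 0.828). The interaction, which tests the difference between these 2 changes, was 0.38 ± 0.14 (SE, adjusted p = 0.574). The averaged change was 0.22 ± 0.07 (SE, adjusted p = 0.0230), lost without ABX 5-FU replicate 2 or 3, ABX replicate 1 or Ctrl replicate 3 (adjusted p between 0.0526 and 0.0577).

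Derl1 (chr15:57869502-57892418, minus strand), a membrane protein of the export channel, had 6.89, 6.96 and 7.08 RPKM in ABX 5-FU libraries, 8.60, 7.33 and 6.72 RPKM in Ctrl 5-FU libraries, 6.50, 5.43 and 5.97 RPKM in ABX libraries and 6.72, 6.92 and 5.90 RPKM in Ctrl libraries. Libraries with and without 5-FU overlapped, with Ctrl replicate 2 above ABX 5-FU replicate 1 and Ctrl 5-FU replicate 3. On average Derl1 changed by 0.19 ± 0.07 (SE, adjusted p = 0.0352), lost when any of 7 libraries was left out, the 3 ABX 5-FU libraries, Ctrl 5-FU replicate 1, ABX replicates 2 and 3 and Ctrl replicate 3 (adjusted p between 0.0566 and 0.0858), and 0.15 (adjusted p = 0.0918) without replicate 1 of both 5-FU groups. The other 4 degradation genes gave no call, with averaged changes of 0.00 for Herpud1, -0.02 for Selenos, -0.14 for Derl2 and 0.16 for Edem1 (adjusted p between 0.0602 and 0.966). Derl2 passed without ABX 5-FU replicate 2 (adjusted p = 0.0352) and Edem1 without ABX replicate 1 (adjusted p = 0.0428).

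Of the sensor genes only Ern1 could be tested. Ern1 (chr11:106394650-106487852, minus strand) had 0.680, 0.829 and 0.733 RPKM in ABX 5-FU libraries, 0.630, 0.721 and 0.875 RPKM in Ctrl 5-FU libraries, 0.938, 0.723 and 1.74 RPKM in ABX libraries and 1.05, 1.98 and 1.13 RPKM in Ctrl libraries. Every library with 5-FU was below every Ctrl library, ABX libraries overlapped those with 5-FU, and ABX replicate 3 and Ctrl replicate 2 stood highest. On average Ern1 changed by -0.35 ± 0.12 (SE, adjusted p = 0.0375), lost when any of 7 libraries was left out, the 3 ABX 5-FU libraries, Ctrl 5-FU replicates 1 and 2, ABX replicate 3 and Ctrl replicate 2 (adjusted p between 0.0544 and 0.0787). It reached 1 RPKM in 4 libraries, all without 5-FU, and with no filter the change was -0.35 (adjusted p = 0.115). Without antibiotics it was -0.43 ± 0.17 (SE, adjusted p = 0.0918). It passed at the same -0.43 without ABX replicate 3 (adjusted p = 0.0425), a library outside that comparison.

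Xbp1 (chr11:5520659-5525893, plus strand), the target of IRE1, had 66.8, 31.4 and 39.5 RPKM in ABX 5-FU libraries, 62.6, 27.0 and 39.7 RPKM in Ctrl 5-FU libraries, 33.4, 29.5 and 34.2 RPKM in ABX libraries and 32.3, 34.8 and 29.3 RPKM in Ctrl libraries. Replicate 1 of both 5-FU groups stood at more than 60 RPKM, and the other 10 libraries lay between 27.0 and 39.7 RPKM. The averaged change was 0.38 ± 0.20 (SE, adjusted p = 0.154) with all libraries, 0.07 (adjusted p = 0.628) without those 2 libraries and 0.52 (adjusted p = 0.0416) without Ctrl 5-FU replicate 2. The 2 libraries share an i7 index and were also the 2 with the highest stromal and endothelial marker sums, at 30.0 RPKM in ABX 5-FU replicate 1 and 16.5 RPKM in Ctrl 5-FU replicate 1, against 2.04 to 2.35 RPKM in the other 5-FU libraries. The endothelial cadherin gene Cdh5 was at 1.0 and 1.91 RPKM in them and at most 0.0704 RPKM in the other 10 libraries. Cdh5 was thus a small part of these sums, and Emcn of the same list was under 1 RPKM in every library. The part of these markers in the Xbp1 values was not tested.

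Atf4 (chr15:80255184-80257540, plus strand), the factor of the PERK branch, had 32.4, 29.6 and 28.4 RPKM in ABX 5-FU libraries, 27.9, 26.4 and 26.9 RPKM in Ctrl 5-FU libraries, 33.2, 33.7 and 38.2 RPKM in ABX libraries and 27.8, 26.8 and 28.1 RPKM in Ctrl libraries. Its 5-FU change was -0.12 ± 0.05 (SE, adjusted p = 0.0913) averaged and -0.21 ± 0.07 (SE, adjusted p = 0.0528) with antibiotics. The change with antibiotics passed without ABX 5-FU replicate 1, at -0.26 (adjusted p = 0.0412). The averaged changes of its 3 outputs were all above 0, and none passed. Ppp1r15a (chr7:45522916-45526268, minus strand), which encodes the GADD34 subunit that restores translation, had 31.4, 34.3 and 28.8 RPKM in ABX 5-FU libraries, 27.7, 36.1 and 39.1 RPKM in Ctrl 5-FU libraries, 18.6, 14.1 and 28.7 RPKM in ABX libraries and 28.3, 43.7 and 34.4 RPKM in Ctrl libraries. ABX replicates 1 and 2 were the 2 lowest of all libraries, and the other groups overlapped. With antibiotics the 5-FU change was 0.65 ± 0.23 (SE, adjusted p = 0.0493), lost when any of 8 libraries was left out, the 3 ABX 5-FU libraries, Ctrl 5-FU replicates 2 and 3, ABX replicates 1 and 2 and Ctrl replicate 3 (adjusted p between 0.0534 and 0.190). It was also lost with no filter, with libraries shifted to 1 median, with only the groups compared and without replicate 1 of both 5-FU groups, at 0.65 (adjusted p = 0.155), 0.65 (adjusted p = 0.0546), 0.65 (adjusted p = 0.0663) and 0.65 (adjusted p = 0.0843) in that order. The averaged change was 0.30 ± 0.16 (SE, adjusted p = 0.145), and it passed without ABX replicate 3 (adjusted p = 0.0209).

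Ddit3 (chr10:127290774-127296288, plus strand), which encodes the pro-apoptotic factor CHOP, had 3.12, 3.62 and 2.56 RPKM in ABX 5-FU libraries, 2.89, 3.73 and 3.26 RPKM in Ctrl 5-FU libraries, 2.48, 1.89 and 3.0 RPKM in ABX libraries and 2.59, 2.11 and 3.23 RPKM in Ctrl libraries. The groups overlapped. Its averaged change was 0.25 ± 0.10 (SE, adjusted p = 0.0732), and it passed without ABX 5-FU replicate 3, ABX replicate 3 or Ctrl replicate 3 (adjusted p between 0.0365 and 0.0487). Trib3, a pseudokinase induced by CHOP, lay between 2.71 and 7.66 RPKM, and its averaged change was 0.40 ± 0.16 (SE, adjusted p = 0.0640), which passed without Ctrl replicate 3 (adjusted p = 0.0126).

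Within each antibiotic state, fewer members passed than in the average. Both comparisons rest on 3 libraries against 3. Without antibiotics 3 members fell after 5-FU (Sec61b, Calr and Manf) and 0 rose, or 10% and 0% of the members, against 11.8% and 9.74% of all genes. With antibiotics 3 members fell (Sdf2l1, Sec61b and Creld2) and 2 rose (Syvn1 and Ppp1r15a), or 10% and 6.67%, against 16.5% and 13.7% of all genes. With libraries rescaled to the same total the split was 1 lower and 2 higher without antibiotics, and 1 lower and 5 higher with antibiotics. The shares of all genes under that rescaling are not given here. The interaction of antibiotics and 5-FU called 0 of the 30 members in limma, with 2 at an unadjusted p under 0.05, against 0.0117% of all genes called lower and 0% higher. Those 2 were Calr at 0.41 ± 0.10 (SE, adjusted p = 0.505) and Syvn1. No member was thus shown to respond to 5-FU differently with antibiotics.

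Ctrl 5-FU replicate 1 was the highest of its 3 libraries for 22 of the 30 members, or 73.3%, against 39.2% of all 8553 genes. Its members lay a median of 0.24 above the mean of the other 2 on the log2 scale, against 0.003 for all genes. Such an excess was not confined to this library. ABX replicate 3 was the highest of its group for 63.3% of the members, against 38.2% of all genes. Ctrl replicate 2 was the highest of its group for 56.7% of them, against 22.8% of all genes. Without Ctrl 5-FU replicate 1 the comparison of Ctrl 5-FU with Ctrl called 13 members in place of 3. The 12 that were lower were Sec61b, Sdf2l1, Manf, Creld2, Hspa5, Hsp90b1, Dnajb11, P4hb, Pdia3, Pdia6, Calr and Ssr1, and the 1 that was higher was Sel1l. P4hb then changed by -0.61 (adjusted p = 0.00325), Pdia3 by -0.51 (adjusted p = 0.00563) and Pdia6 by -0.48 (adjusted p = 0.00531). This library had the highest megakaryocyte and platelet marker sum, 433 RPKM against 149 and 125 RPKM in the other 2 of its group, with the platelet factor gene Pf4 at 309 RPKM. It was also the shallowest of the 12, at an estimated 27.4 M reads. Without replicate 1 of both 5-FU groups the same comparison called 13 members, and the comparison of ABX 5-FU with ABX called 10, of which 8 were lower and 2 higher. In the average over both states, 14 members passed without both libraries, 12 lower and 2 higher. Shares of all genes called with these libraries left out are not given here. The counts from such fits are therefore not read as a result about the members.

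**Figure D3:**
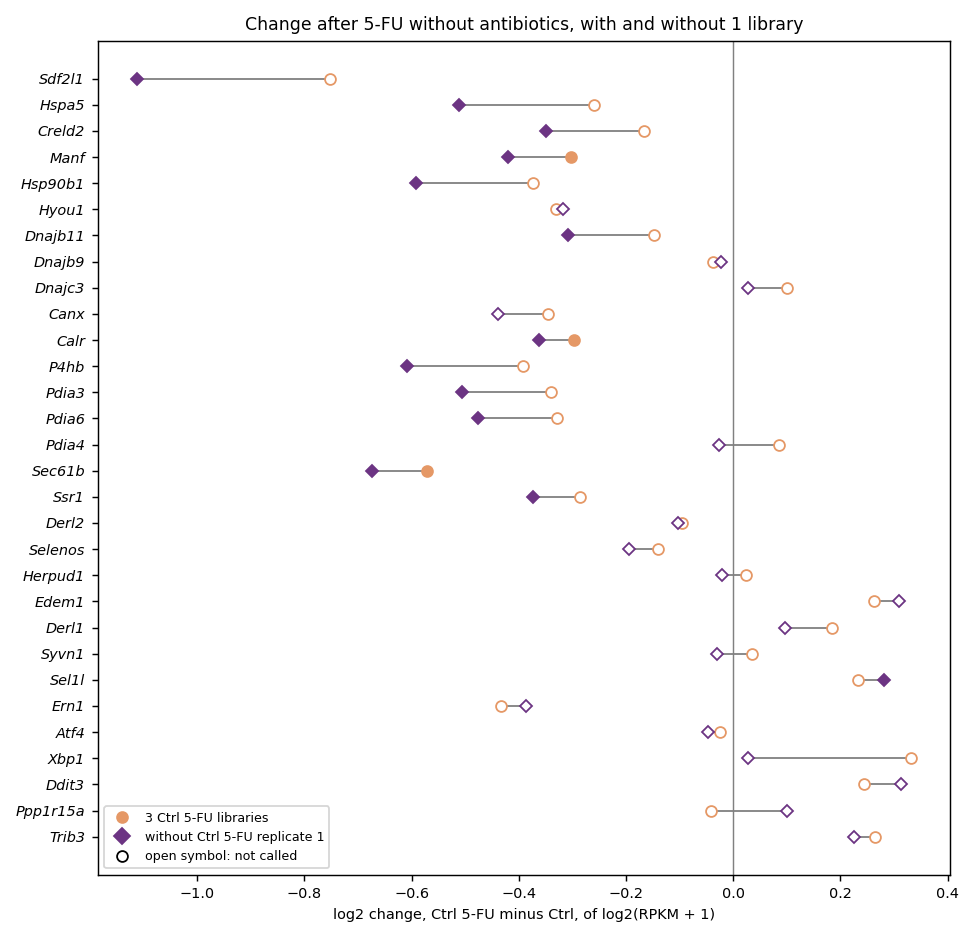
Change of each of the 30 tested genes in Ctrl 5-FU against Ctrl libraries, as a difference of log2(RPKM + 1) on the horizontal axis; circles use all 3 Ctrl 5-FU libraries, diamonds leave out Ctrl 5-FU replicate 1, and filled symbols passed an adjusted p of 0.05 in limma. Without the library 13 genes passed, 12 of them to the left of 0, in place of 3. The share of all genes that passed without it is not given here.

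**Figure D4:**
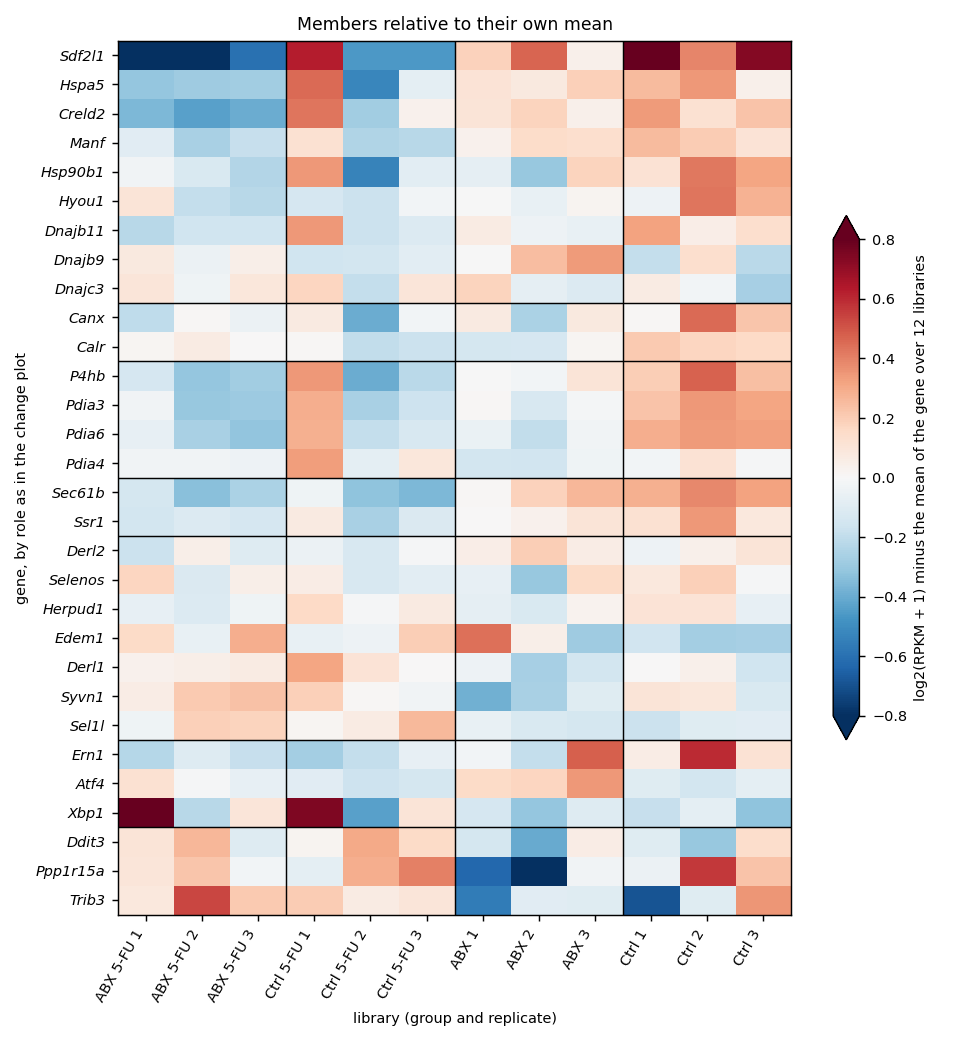
Level of the 30 tested genes (rows, in the order of the plot of changes by role) in the 12 libraries (columns, in the order ABX 5-FU, Ctrl 5-FU, ABX, Ctrl), as log2(RPKM + 1) minus the mean of each gene, red above and blue below its mean; the scale ends at 0.8 on either side. Ctrl 5-FU replicate 1 is red for most chaperones and isomerases, unlike the other 5-FU libraries.

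Antibiotics alone left the members without a call at steady state. In the comparison of ABX with Ctrl, limma called 0 of 30, with 7 at an unadjusted p under 0.05, against 0.0351% of all genes called higher and 0.0351% called lower. The members' median change was -0.14 against 0.02 for all genes. Of the 30, 23 were lower and 7 higher in ABX libraries, and the share of all genes that were lower is not given here. The depth of ABX libraries was also lower, and its part in these values was not tested. Calr was at 107, 107 and 119 RPKM in ABX libraries and at 137, 133 and 132 RPKM in Ctrl libraries, a difference of -0.27 ± 0.07 (SE, adjusted p = 0.139). Pdia6 differed by -0.41 ± 0.12 (SE, adjusted p = 0.150) and Ppp1r15a by -0.80 ± 0.23 (SE, adjusted p = 0.150). After 5-FU the comparison of ABX 5-FU with Ctrl 5-FU also called 0 of 30 in limma, with 2 at an unadjusted p under 0.05, against 0.0702% of all genes higher and 0.0468% lower. Those 2 were Creld2 at -0.46 ± 0.14 (SE, adjusted p = 0.161) and Sdf2l1 at -0.69 ± 0.25 (SE, adjusted p = 0.231), and for each of them every ABX 5-FU library was below every Ctrl 5-FU library. Such a separation, higher or lower, held for 21.2% of all genes. Among the 30 members it held for 2 higher and 3 lower, so it was not particular to these genes. Without Ctrl 5-FU replicate 1 the differences were -0.28 (adjusted p = 0.238) for Creld2 and -0.33 (adjusted p = 0.362) for Sdf2l1.

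Averaged over both 5-FU states, 1 of 30 members, or 3.33%, was higher with antibiotics and 0 were lower, against 1.58% and 0.807% of all genes. That member was Atf4. Every library with antibiotics, at 28.4 to 38.2 RPKM, was above every library without them, at 26.4 to 28.1 RPKM. The averaged difference was 0.24 ± 0.05 (SE, adjusted p = 0.0408), with 0.33 ± 0.07 (SE, adjusted p = 0.0969) at steady state and 0.15 ± 0.07 (SE, adjusted p = 0.389) after 5-FU. The call did not hold when any 1 library but Ctrl 5-FU replicate 1 was left out (adjusted p between 0.0543 and 0.0959). It also did not hold with no filter, with libraries rescaled or shifted to 1 median, or with the i7 index as a block, where the difference was 0.24 (adjusted p = 0.0511). In that blocked fit Pdia6 passed instead, lower with antibiotics at -0.31 (adjusted p = 0.0405). Ppp1r15a passed, lower with antibiotics, only without ABX replicate 3, at -0.58 (adjusted p = 0.0465).

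Further genes of the ER pathways, in 6 lists of 123 genes with 96 tested, gave 13 higher and 19 lower with 5-FU on average, against 20.2% and 23.4% of all genes. Calls of these genes are from the main fit alone. They were not followed under the alternatives, so how they depend on scaling is not known. The N-glycosylation list had 1 higher and 8 lower of 18 tested, with a median change of -0.14. Its lower genes included the mannosyltransferase Alg2 at -0.51 (adjusted p = 5.89e-05) and the oligosaccharyltransferase subunits Ddost at -0.42 (adjusted p = 0.000213) and Ostc at -0.36 (adjusted p = 0.00126). The list of other translocon, signal peptidase and signal recognition genes had 1 higher and 4 lower of 19. Ssr4, a partner of Ssr1, changed by -0.44 (adjusted p = 0.000187), the signal peptidase subunit Spcs2 by -0.29 (adjusted p = 0.00527) and the receptor subunit Srprb by -0.21 (adjusted p = 0.0123). Other folding and oxidation genes had 5 higher and 4 lower of 17. The prolyl isomerases Fkbp11 and Fkbp2 changed by -0.73 (adjusted p = 0.000289) and -0.89 (adjusted p = 0.000425), and the reductase gene Dnajc10 by 0.31 (adjusted p = 0.00458).

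Other degradation genes had 2 higher and 1 lower of 18 tested. The ubiquitin ligase Rnf5 changed by -0.33 (adjusted p = 0.00180), the glycanase Ngly1 by 0.17 (adjusted p = 0.0301) and the exit site gene Sec16a by 0.20 (adjusted p = 0.0405). Other stress kinases, ATF4 partners and targets had 2 higher and 1 lower of 13. The lipoprotein receptor Vldlr changed by 1.23 (adjusted p = 0.000140), the antioxidant factor Nfe2l2 by 0.41 (adjusted p = 0.000196) and the asparagine synthetase Asns, an ATF4 target, by -0.37 (adjusted p = 0.00395). Other ATF6 and IRE1 arm genes had 2 higher and 1 lower of 11. Ptpn1, an ER phosphatase, changed by 0.20 (adjusted p = 0.00720), Mbtps1, the protease that cuts ATF6, by 0.24 (adjusted p = 0.00978) and Ddrgk1 by -0.16 (adjusted p = 0.0147). In the comparison of Ctrl 5-FU with Ctrl the 96 genes gave 5 higher and 13 lower, against 9.74% and 11.8% of all genes. In that of ABX 5-FU with ABX they gave 8 higher and 12 lower, against 13.7% and 16.5% of all genes. Averaged over 5-FU, antibiotics gave 0 higher and 2 lower, against 1.58% and 0.807% of all genes. Both were in the N-glycosylation list, Ddost at -0.25 (adjusted p = 0.0445) and the cargo lectin Lman2 at -0.23 (adjusted p = 0.0408). The other 3 comparisons called 0 of the 96.

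The changes were set beside the promoter sites as a description. Of the 10 tested genes with an ERSE or ERSE-II match 2 fell with 5-FU (Creld2 and Pdia6), 1 rose (Syvn1) and 7 gave no call, with changes from -0.34 to 0.22 and a median of -0.18. Of the 17 tested genes with a window and no match 6 fell and 1 rose, with a median of -0.10. Over all genes tested 23.4% fell and 20.2% rose, with a median of -0.005. The difference between genes with and without a match was not tested. Sdf2l1 and Sec61b, which fell, had a window without a match.

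Other members share sequence with further genes, and their values are uncertain to that extent. Pseudogenes with at least 90% identity over at least 200 nt exist for Derl1 (Gm35638, 95.399%), Dnajb9 (Gm6568, 93.257%, at most 0.155 RPKM) and Calr (Calr-ps, 92.525%, at most 3.56 RPKM). Exons on the other strand overlap 4.0% of the bases of Ddit3 (Mars), 2.9% of Derl2 (Mis12) and 1.9% of Syvn1 (Mrpl49), and those partners reached 8.23, 9.41 and 14.7 RPKM.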

How the data were processed

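Extraction used RNeasy Plus Micro, amplification SMART-Seq v4 and library preparation Nextera XT, per the labels' protocols. STAR 2.5.3a and Partek software with the mm10 build are named in the submitters' processing notes. The authors deposited 1 table of RPKM values for 46986 features in 12 libraries, with 0 written as 0.0001. Not given in the sources used here: annotation release, counting rule and sort gates. The kit does not mark strand.

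The deposited RPKM values were tested as log2(RPKM + 1) with limma 3.58.1 in R 4.3.3. Genes at 1 RPKM or more in at least 3 libraries (8553) entered 1 fit of 4 group means over all 12 libraries, with 8 residual degrees of freedom and an intensity trend. Tests were two-sided, Benjamini-Hochberg adjustment was made per comparison over all genes, and the threshold was 0.05. An exact permutation test of 3 libraries against 3 cannot go below 0.1 and was not used. Low values came within 2% of whole reads for only 50.4% to 55.6% of genes per library, so no count test was run, and depth is an estimate. The fit was checked on simulated data. Copies were sought with BLAST 2.17.0 among GENCODE transcripts. Promoter windows are from RefSeq (GRCm38.p6).

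The genes, roles, pathway lists and marker lists were chosen with earlier results of these data known, and support nothing by themselves. The text names every member called, up to 10 per comparison by smallest p, and in any case Hspa5, Hsp90b1, Xbp1, Atf4, Ddit3, Ern1, Atf6 and Eif2ak3. Of the pathway lists it names up to 3 called genes per list, by smallest p. Replicate numbers follow the order of the samples and are only names. Libraries with antibiotics share i7 indexes with libraries without them within each 5-FU state, and the labels do not say whether an index marks a shared source. No 2 libraries were identical. The alternatives were the pseudocount, the filter, the scaling, the trend, the samples fitted, the i7 index as a block (in the comparisons of antibiotics and the interaction) and each library left out. The fit without replicate 1 of both 5-FU groups was added after seeing the data.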

Additional observations from a re-analysis of the deposited data

How the results depend on the processing

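Over 22 alternatives the values of the members called in each comparison, and of Hspa5, Hsp90b1, Xbp1, Atf4, Ddit3 and Ern1, kept their side of the threshold 1120 times, lost a call 116 times, gained one 23 times and reversed 0 times; members outside these also gained calls. The count of members called in Ctrl 5-FU against Ctrl was 3 as reported, 5 with the filter at 5 RPKM, 6 with libraries shifted to 1 median, 1 with only the groups compared, 13 without replicate 1 of both 5-FU groups, and 1 to 13 when 1 library was left out (13 without Ctrl 5-FU replicate 1, 1 without Ctrl 5-FU replicate 2 or 3). In ABX 5-FU against ABX it was 5 as reported, 2 with no filter, 8 with only the groups compared, 10 without replicate 1 of both 5-FU groups, and 2 to 8 when 1 library was left out (8 without Ctrl 5-FU replicate 1, 2 without ABX 5-FU replicate 2 or ABX replicate 2, 3 without ABX 5-FU replicate 3). For 5-FU on average it was 12 as reported, 5 with no filter, and 7 to 13 when 1 library was left out (7 without ABX 5-FU replicate 2 or 3). For antibiotics on average it was 1 as reported, 0 with no filter, 0 rescaled to the same total, 0 shifted to 1 median, 0 without replicate 1 of both 5-FU groups, and 0 to 1 when 1 library was left out. The other 3 comparisons called 0 members under every alternative run. The cause of these differences was not tested. Shares of all genes called under the alternatives are not given beside these counts. All libraries in a fit share 1 estimate of spread, so leaving out a library can change calls in comparisons that it does not enter. The labels give no replicate numbers. With the i7 index as a block, which could be fitted for antibiotics and the interaction alone, antibiotics on average called 1 member, Pdia6 (-0.31, adjusted p = 0.0405), in place of Atf4 (0.24, adjusted p = 0.0511), and 0 members otherwise. Manf, Ern1 and Edem1 lie near the filter of 1 RPKM, and Atf6 and Eif2ak3 could not be tested.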
